A study of Mus musculus with 6 samples.

Results

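Basement membranes are thin sheets of matrix under epithelia and around vessels, nerve and muscle, and 32 genes that encode their structural proteins were followed in young and aged mouse RPE/choroid. The members were listed by name from what their proteins are known to be, with earlier results of these data known, and the rule itself uses no measured value. The deposited table of the poly(A) experiment, which holds 33924 genes, contained 32 of the 32 members. The minimum for reporting was a mean normalized count of 10, which 32 of 32 passed, with means from 90.8 to 55030. Together they held 0.421% of the summed mean normalized counts of the table.

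RPE/choroid came from 3 young and 3 aged mice of the inbred strain C57BL/6J, and the labels name no treatment or added allele in either group. RPE is the retinal pigment epithelium, the pigmented cell layer behind the photoreceptors, and the choroid is the vascular layer behind it. The 2 eyes of a mouse were pooled in a sample, after the neural retina, the front of the eye, muscle and optic nerve had been dissected off. Young mice were 1 to 2 months old by their labels, and the study's methods place them somewhat older. Sample titles place the aged mice at 20 to 24 months, while a second label of theirs reads 22 to 24 months. The labels name male mice and the study's methods both sexes, so age range and sex are uncertain to that extent.

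Bruch's membrane lies between the RPE and the choriocapillaris, the capillary bed that feeds the outer retina. Its outermost sheets are the basement membranes of the RPE and of the capillary endothelium, with collagenous layers and an elastic layer between them. Basement membranes are built from a laminin network, assembled from trimers of an alpha, a beta and a gamma chain, and from a network of type IV collagen trimers. Nidogens and the heparan sulfate proteoglycans perlecan and agrin link these networks. Bruch's membrane thickens with age, and it is studied for its part in age-related macular degeneration.

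The table gives 1 line per gene, with a mean normalized count over the libraries of both ages, a log2 fold change, its standard error (SE) and a p-value of DESeq2's Wald test. It holds no value for a single mouse, so no SD between mice and no overlap of the groups can be given. The level in each age group was derived here from the mean and the fold change and is called the implied level. Fold changes are given as aged over young and are moderated towards 0. "Called" means a Benjamini-Hochberg adjusted p under 0.05 in the DESeq2 Wald test, adjusted over all 18196 genes that have a p-value and pass the minimum of 10. In a bulk tissue such as this, fewer cells of a type and less RNA per cell cannot be told apart.

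Among the 29 members with a p-value, 17 were called lower in aged RPE/choroid, 1 was called higher and 11 were not called. Over all 18196 tested genes, 23.3% were called in either direction, 10.4% as lower and 12.9% as higher, beside 58.6% of the members as lower. Tested members had a median log2 fold change of -0.57, beside -0.02 for all tested genes. Of the 32 members, 27 had a fold change below 0 (84.4%), against 51.7% of all genes with a mean of at least 10. Frem2 had the lowest log2 fold change of the members, at -2.63, and Ntn4, at 0.44, was the called gene above 0. Col4a5, Lamc3 and Col7a1 lack a p-value in the table, as do 307 of all genes with a fold change (1.20%), and they are given with their intervals and no call.

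**Figure D1:**
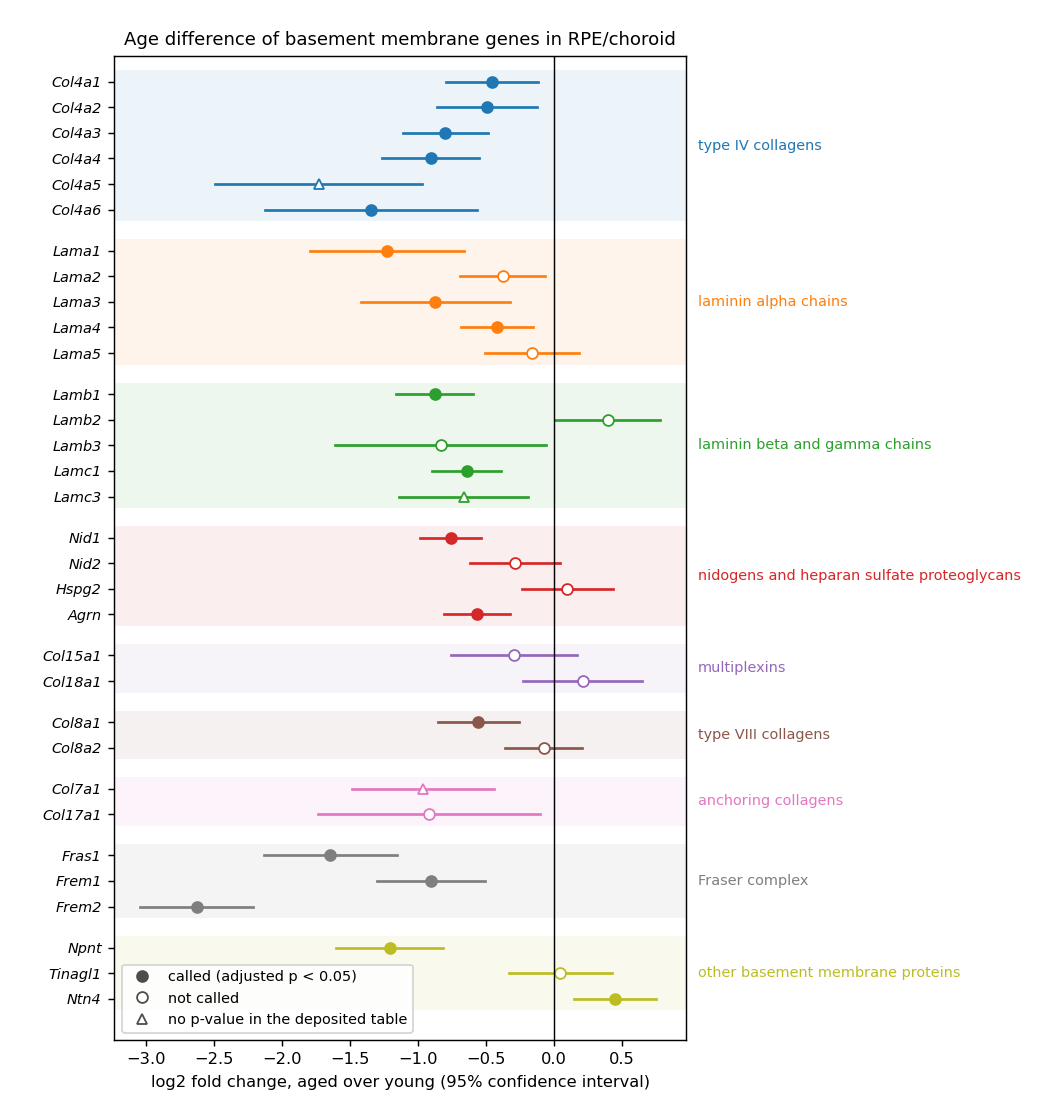
Log2 fold change of the 32 members, aged over young RPE/choroid (x axis), grouped by role. Points are the estimates and bars their 95% confidence intervals, filled circles are called genes, open circles genes not called and triangles the 3 genes with no p-value. Most members lie left of 0, Frem2 lies farthest left at -2.63, and Ntn4 is the filled point to the right of 0.

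The dissected tissue held RNA of more than RPE and choroid. Rpe65, the RPE's retinoid isomerase, had a mean normalized count of 113930. The 7 rod photoreceptor markers reported had means from 15466 to 46603, and Krt12, a keratin of the corneal epithelium, had 8166. Rod markers were above 0 in 7 of 7 genes (log2 fold changes 0.08 to 0.40) and corneal and conjunctival epithelium markers were below 0 in 8 of 8 (median -0.64), with 0 called in either list. In those lists 0 of 7 rod and 2 of 8 epithelial markers had an unadjusted p under 0.05, beside 6112 of 18196 tested genes. The summed implied level of the 8 epithelial markers was 35128 in young and 23209 in aged RPE/choroid. Macrophage markers had 6 of 8 called higher, melanocyte markers 3 of 6 called lower, RPE markers 2 of 10 called higher and 1 lower, and endothelium markers 1 of 9 tested called lower. The part of any of these cell types in the results below was not tested.

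Type IV collagen fell with age in every chain that had a p-value. It is the collagen of basement membranes, with 6 chains that assemble into 3 kinds of trimer. A p-value was given for 5 of the 6 genes and 5 of 5 were called lower, with a median log2 fold change of -0.80. Summed over the 6 chains, the implied level was 33654 in young and 17470 in aged RPE/choroid. The largest part of that drop was in Col4a5 (11644 in young, 3508 in aged), the chain with no p-value and a wide SE of 0.39.

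These 6 genes lie as 3 head-to-head pairs, each with the start sites facing away from each other, and the DNA at their starts is printed. Col4a1 shares its printed stretch with Col4a2, and Col4a4 with Col4a3, while Col4a6 and Col4a5 each have a separate stretch. Positions are from the GRCm38 mouse genome, and sequences are the plus strand from RefSeq on GRCm38.p6. Capitals mark matches to motifs searched on both strands, which were the GC box with the letters GGGCGG, the promoter box CCAAT, and the core sequence of the TATA box with the letters TATAAA. The first exons of Col4a1 (minus strand, chr8:11198423-11312826) and Col4a2 (plus strand, chr8:11312805-11449287) overlap by 22 bases. Between the starts of Col4a4 (minus strand, chr1:82448423-82586849) and Col4a3 (plus strand, chr1:82586921-82722059) lie 71 bases. Col4a6 (minus strand, chrX:141165403-141474076) and Col4a5 (plus strand, chrX:141475385-141689234) are 1308 bases apart, and 250 bases before Col4a6 and 216 bases before Col4a5 are shown from that gap.
Col4a1 and Col4a2, chr8:11312805-11312826: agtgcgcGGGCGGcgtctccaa
Col4a4 and Col4a3, chr1:82586850-82586920: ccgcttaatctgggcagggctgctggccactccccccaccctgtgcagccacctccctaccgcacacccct
Before Col4a6, chrX:141474077-141474326: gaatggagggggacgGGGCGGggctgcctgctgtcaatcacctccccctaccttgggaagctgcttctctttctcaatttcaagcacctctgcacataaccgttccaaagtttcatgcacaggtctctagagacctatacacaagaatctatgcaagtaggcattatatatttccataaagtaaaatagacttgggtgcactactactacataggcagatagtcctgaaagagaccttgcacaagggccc
Before Col4a5, chrX:141475169-141475384: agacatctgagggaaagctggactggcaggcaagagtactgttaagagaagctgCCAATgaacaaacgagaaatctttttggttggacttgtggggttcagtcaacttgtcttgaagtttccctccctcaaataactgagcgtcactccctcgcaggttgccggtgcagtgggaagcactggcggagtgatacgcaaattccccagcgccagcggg

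The stretch shared by Col4a1 and Col4a2 held 1 GGGCGG, which 4.09% of 32817 mouse promoters hold in a window of the same length and position. The stretch before Col4a6 also held 1 GGGCGG, found in 32.7% of promoter windows of 250 bases. A CCAAT stood before Col4a5, as in 30.5% of windows of 216 bases. None of the 3 motifs was in the 71 bases between Col4a4 and Col4a3. GC content was 72.7% and 69.0% in the first 2 of these stretches and 47.6% and 52.3% before Col4a6 and Col4a5. A match is a run of letters and not a measured binding site.

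Col4a1 and Col4a2 encode the chains of the trimer found in nearly all basement membranes, and both were called lower. The implied level of Col4a1 was 8777 in young and 6387 in aged RPE/choroid, a log2 fold change of -0.46 (SE 0.17) with a DESeq2 Wald adjusted p of 0.0368. Col4a2 went from 4888 to 3473, with a log2 fold change of -0.49 (SE 0.19) and a DESeq2 adjusted p of 0.0414. These are the type IV collagen calls nearest the threshold, and both are lost when genes with a mean under 10 stay in the adjustment (adjusted p 0.0504 and 0.0567). The difference between the fold changes of the pair was 0.03 on the log2 scale (95% confidence interval -0.47 to 0.54), an interval that treats both estimates as independent. It is 1 of 12 gene pairs set side by side, which were chosen after values were seen, so their unadjusted intervals are a description and not a test.

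Col4a3 and Col4a4 encode chains of the trimer known from the kidney glomerulus, whose loss causes Alport syndrome, and both fell. Col4a3 had implied levels of 2693 in young and 1547 in aged RPE/choroid, a log2 fold change of -0.80 (SE 0.16, DESeq2 adjusted p = 9.56e-06). For Col4a4 the levels were 2408 and 1283, with a log2 fold change of -0.91 (SE 0.18, DESeq2 adjusted p = 9.00e-06). Their fold changes differed by 0.11 (95% confidence interval -0.36 to 0.58). The fold change of Col4a1 lay 0.34 above that of Col4a3, with an interval from -0.12 to 0.80.

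The X-linked chains had the lowest estimates of the family and the widest intervals. Col4a5, the third chain of the Alport trimer, had implied levels of 11644 in young and 3508 in aged RPE/choroid. Its log2 fold change was -1.73 (95% confidence interval -2.49 to -0.97), and it has no p-value in the table. Col4a6, a chain of smooth muscle and some epithelial basement membranes, went from 3245 to 1273, a log2 fold change of -1.35 (SE 0.40, DESeq2 adjusted p = 0.00509). Their fold changes differed by -0.38, with an interval from -1.47 to 0.71. The SEs of 0.39 and 0.40 are among the widest in the table, since 2.06% and 1.70% of tested genes with a mean of at least 100 have an SE as large. Corneal and conjunctival epithelium markers (SE 0.36 to 0.43) and rod markers (SE 0.38 to 0.41, fold changes above 0) had SEs in the same range. Single markers of skeletal muscle (Acta1 at 0.36, and Tnnc2 at 0.40 with a mean of only 21.6) and endothelium (up to 0.37) came near it. Corneal stroma markers had SEs from 0.22 to 0.43, as did lens markers, a list chosen after values were seen. The largest SE of all genes with a mean of at least 10 was 0.43, so these values lie near the top of the range. Pericyte and smooth muscle markers had SEs of at most 0.24, with 3 of 8 tested genes called lower and 0 higher. The 3 were Acta2, Myh11 and Tagln, named after their values were seen. Over all 9 markers of that list, 4 were below 0 and the median log2 fold change was 0.16. The part of any of these tissues in the values of Col4a5 and Col4a6 was not tested.

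Laminins were lower in aged RPE/choroid in 5 of the 9 chains tested, and none was called higher. Alpha chains decide which cells a laminin serves, and 3 of 5 alpha genes were called lower, with log2 fold changes from -1.23 to -0.16 over the 5. Lama1, the chain of early embryonic and lens or inner retinal basement membranes, had the lowest level per kilobase of all 32 members (10.1 normalized counts per kilobase of the longest transcript). Its implied levels were 134 in young and 57.3 in aged RPE/choroid, a log2 fold change of -1.23 (SE 0.29, DESeq2 adjusted p = 0.000245). Lama3, a chain of the laminin that anchors epithelia, went from 493 to 269, with a log2 fold change of -0.87 (SE 0.28, DESeq2 adjusted p = 0.0112). Lama4, the alpha chain of endothelial basement membranes, went from 2594 to 1937, with a log2 fold change of -0.42 (SE 0.13, DESeq2 adjusted p = 0.0108).

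Lama2 and Lama5 were the alpha chains with no call. Lama2, the alpha chain around muscle fibres and Schwann cells, had implied levels of 2394 and 1841, a log2 fold change of -0.38 (95% confidence interval -0.69 to -0.07) and a DESeq2 adjusted p of 0.0677. Lama5, a chain of mature epithelial and vascular basement membranes, had 1488 and 1332, with a log2 fold change of -0.16 (-0.50 to 0.18, DESeq2 adjusted p = 0.560). The fold changes of Lama4 and Lama5, the vascular chains, differed by -0.26, with an interval of -0.70 to 0.17.

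Of the beta chains, Lamb1 was called lower. Lamb1, the beta chain of most early and many adult laminins, fell from an implied level of 5364 to 2918, a log2 fold change of -0.88 (SE 0.14, DESeq2 adjusted p = 3.21e-08). Lamb2, the beta chain of adult synaptic, vascular and glomerular laminins, had levels of 9962 in young and 13088 in aged RPE/choroid, with a log2 fold change of 0.39 (0.01 to 0.78) that was not called (DESeq2 adjusted p = 0.142, unadjusted 0.0468). The difference of Lamb1 from Lamb2 in log2 fold change was -1.27, with an interval of -1.75 to -0.79. Lamb2 was also the more abundant per transcript length, at 2047 normalized counts per kilobase over both ages against 716 for Lamb1. Lamb3, the beta chain of the epithelial anchoring laminin, had implied levels of 116 and 65.3, with a log2 fold change of -0.83 (-1.61 to -0.06, DESeq2 adjusted p = 0.116).

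Lamc1, the gamma chain shared by most laminins, fell from 1820 to 1166, a log2 fold change of -0.64 (SE 0.13, DESeq2 adjusted p = 1.48e-05). Lamc3, a gamma chain found in retina and nerve, had implied levels of 2006 and 1265, a log2 fold change of -0.67 (-1.14 to -0.19) and no p-value. The fold changes of the gamma chains differed by 0.02 (-0.52 to 0.56).

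**Figure D2:**
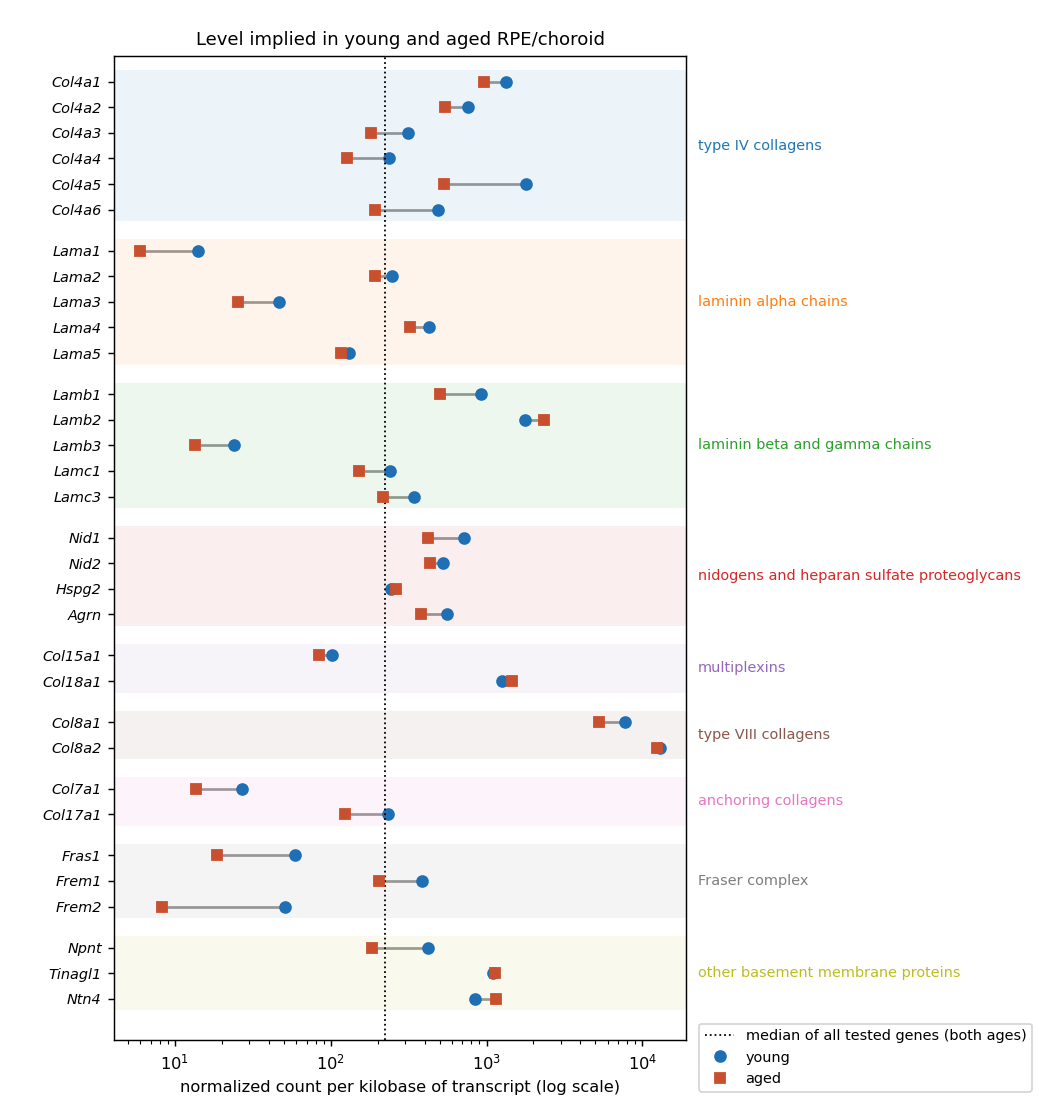
Implied level of each member in young (blue circles) and aged (red squares) RPE/choroid, in normalized counts per kilobase of the longest transcript on a log axis, with a dotted line at the median of all tested genes. Col8a2 and Col8a1 have the highest levels, Lama1 and Frem2 the lowest in aged tissue, and the largest gap between ages is that of Frem2.

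Of the linkers between laminin and type IV collagen, Nid1 and Agrn fell, and Nid2 and Hspg2 were not called. Nid1, encoding nidogen, which bridges laminin and type IV collagen, went from an implied level of 4350 to 2566, a log2 fold change of -0.76 (SE 0.11, DESeq2 adjusted p = 5.87e-10). Its SE of 0.11 was the lowest of the 32 members. Nid2, the second nidogen, had levels of 2571 and 2110, with a log2 fold change of -0.29 (-0.62 to 0.05, DESeq2 adjusted p = 0.227). Nid1 differed from Nid2 by -0.48 in log2 fold change (95% confidence interval -0.87 to -0.08). Of the exon bases of Nid2, 8.45% are shared with Rtraf on the opposite strand, and whether reads were counted by strand is not given in the sources used here.

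Agrn encodes agrin, the heparan sulfate proteoglycan known from the neuromuscular junction and from epithelial basement membranes. Its implied level fell from 4070 to 2750, a log2 fold change of -0.57 (SE 0.12, DESeq2 adjusted p = 8.50e-05). Hspg2, encoding perlecan, the major heparan sulfate proteoglycan of vascular basement membranes, had 3476 in young and 3721 in aged RPE/choroid, with a log2 fold change of 0.10 (-0.24 to 0.43, DESeq2 adjusted p = 0.731). The estimate for Hspg2 turns to -0.03 when fold changes are set to library totals. The fold change of Hspg2 lay 0.66 above that of Agrn, with an interval from 0.25 to 1.08.

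The multiplexins are collagens with heparan or chondroitin sulfate chains, and neither was called. Col18a1, the parent of the endostatin fragment and a component of Bruch's membrane, had implied levels of 7075 in young and 8181 in aged RPE/choroid (log2 fold change 0.21, -0.23 to 0.64, DESeq2 adjusted p = 0.543). Col15a1, the multiplexin of muscle and capillary basement membranes, had 530 and 432, with a log2 fold change of -0.29 (-0.76 to 0.17, DESeq2 adjusted p = 0.404). Per kilobase, the level of Col15a1 was 0.0682 of that of Col18a1, and their fold changes differed by -0.50 with an interval of -1.14 to 0.13.

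Type VIII collagens were the most abundant members per kilobase of the longest transcript. With the median transcript length of each gene instead, the order from the top was Lamb2 (28179 normalized counts per kilobase), Col8a2 (23542), Col4a1 (6480) and Col8a1 (6466). That order rests on short median lengths of 409 bases for Lamb2 and 1170 for Col4a1, whose longest transcripts have 5629 and 6615 bases. Type VIII collagens are short-chain collagens of the corneal endothelium's Descemet's membrane and of vessel walls. COL8A1 lies at a locus associated with age-related macular degeneration in people. Per kilobase over both ages, Col8a2 stood at 12703 normalized counts, at percentile 98.4 of tested genes, and Col8a1 at 6466, at percentile 96.7. The median tested gene had 222 per kilobase. Col8a1 fell from an implied level of 39328 to 26734, a log2 fold change of -0.56 (SE 0.15, DESeq2 adjusted p = 0.00225). Col8a2 had levels of 56506 and 53555, with a log2 fold change of -0.08 (-0.36 to 0.20, DESeq2 adjusted p = 0.750). The log2 fold change of Col8a1 differed from that of Col8a2 by -0.48, with an interval of -0.89 to -0.07. Corneal stroma markers had 3 of 4 tested genes called lower, and the part of corneal tissue in the values of Col8a1 and Col8a2 was not tested.

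The anchoring collagens fasten an epithelium to the stroma beneath it. Col17a1, the transmembrane collagen of hemidesmosomes, had implied levels of 1299 and 686, with a log2 fold change of -0.92 (-1.73 to -0.11) and a DESeq2 adjusted p of 0.0947. Col7a1, the anchoring fibril collagen of skin and cornea, had 248 and 127, with a log2 fold change of -0.96 (-1.49 to -0.44) and no p-value. Both encode proteins of stratified epithelia, and Col17a1 had the widest SE of the members, 0.42, which 0.930% of tested genes with a mean of at least 100 reach. The SE of Lamb3 was 0.40, and the range over the corneal and conjunctival epithelium markers, which were below 0 in 8 of 8 genes, was 0.36 to 0.43. The part of that epithelium in the values of Col17a1, Col7a1, Lama3 and Lamb3 was not tested.

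**Figure D3:**
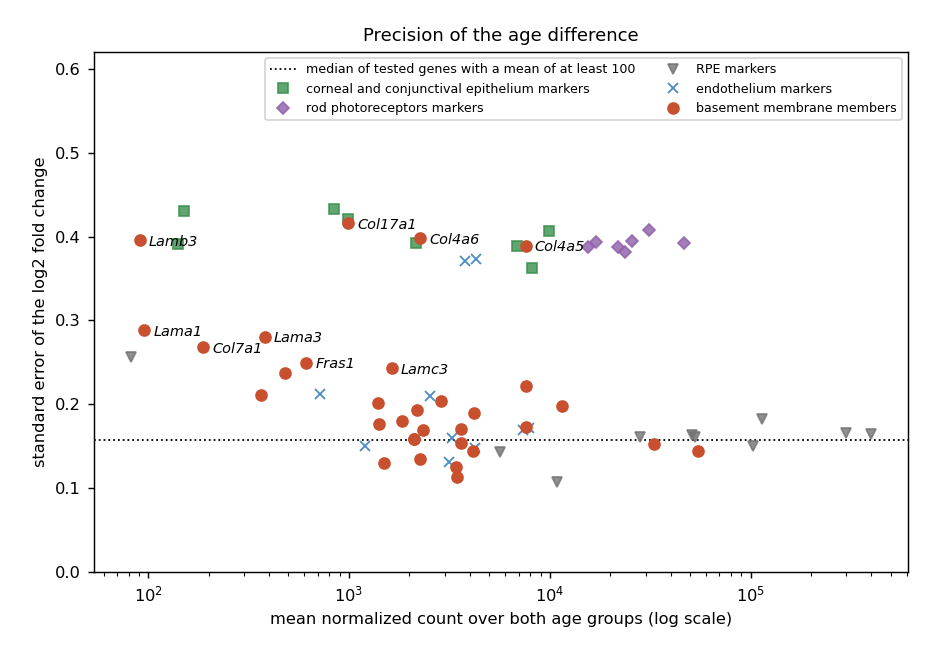
Standard error of the log2 fold change (y axis) against the mean normalized count over both ages (x axis, log scale) for the members with a label at an SE above 0.24, and for markers of 4 cell types. Col17a1, Col4a6, Lamb3 and Col4a5 lie at 0.39 to 0.42, level with corneal epithelium and rod markers, while most other members lie near the dotted median of 0.16.

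The Fraser complex fell in 3 of 3 genes, and its Frem2 had the lowest fold change of the members. Fras1, Frem1 and Frem2 form a complex at embryonic epithelial basement membranes, and mutations of its genes cause Fraser syndrome and related disorders. Frem2 (chr3:53513938-53657355, minus strand) went from an implied level of 631 in young to 102 in aged RPE/choroid. Its aged-to-young ratio was 0.162 (95% confidence interval 0.121 to 0.215), with a log2 fold change of -2.63 (SE 0.21, DESeq2 adjusted p = 2.46e-33). Fras1 (chr5:96373955-96784728, plus strand) fell from 930 to 297, a ratio of 0.319 and a log2 fold change of -1.65 (SE 0.25, DESeq2 adjusted p = 1.59e-09). Frem1, which is secreted and steadies the complex, fell from 3730 to 1991, a ratio of 0.534 and a log2 fold change of -0.91 (SE 0.20, DESeq2 adjusted p = 0.000121).

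The levels and fold changes of the 3 genes were spread widely. The fold change of Frem1 lay 1.72 above that of Frem2 (95% confidence interval 1.15 to 2.30). Frem1 was also 9.95 times as abundant as Frem2 per kilobase over both ages, at 295 against 29.7 normalized counts. Fras1 stood at 38.7 per kilobase, so that Fras1 and Frem2 lay at percentiles 20.2 and 16.9 of tested genes. Frem3, a related gene on the list of assembly proteins, had a log2 fold change of -2.02 (DESeq2 adjusted p = 6.78e-06) and was named after its value was seen.

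The remaining members showed a fall, no call and a rise. Npnt encodes nephronectin, a basement membrane ligand of the integrin with the alpha-8 chain. It fell from an implied level of 1954 to 845, a ratio of 0.432 and a log2 fold change of -1.21 (SE 0.20, DESeq2 adjusted p = 6.21e-08). Itga8, which encodes that alpha chain and was singled out after its value was seen, fell too, from 887 to 482, with a log2 fold change of -0.88 (SE 0.21, DESeq2 adjusted p = 0.000274). Tinagl1, a matrix glycoprotein that binds laminin and integrins, had levels of 2161 and 2229, with a log2 fold change of 0.04 (-0.33 to 0.42, DESeq2 adjusted p = 0.901), and the sign of that estimate turned under another scaling.

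Ntn4 encodes netrin-4, a laminin-related protein that binds the laminin gamma-1 chain and can open the laminin network. Its implied level rose from 3076 to 4186, a ratio of 1.36 (95% confidence interval 1.10 to 1.68) and a log2 fold change of 0.44 (SE 0.15, DESeq2 adjusted p = 0.0206). That call is lost when fold changes are set to library totals (log2 fold change 0.31, adjusted p = 0.113) and at an adjusted p under 0.01. Ntn1, encoding netrin-1, was among the assembly proteins called higher, with a log2 fold change of 0.53.

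Beyond the members, 3 lists of related genes were read in the same way. Basement membrane receptors had 5 of 15 called lower and 0 called higher, with a median log2 fold change of -0.29. The 5 were Itga2, Itga6, Itga7, Itga8 and Bcam, a laminin receptor, with log2 fold changes from -1.42 to -0.34, and they were named after their values were seen. Itgb1, the beta chain shared by most of these integrins, had a mean of 19006 and a log2 fold change of -0.29 (SE 0.14, DESeq2 adjusted p = 0.131). Sdc4, a syndecan, had a mean of 12667 and a log2 fold change of 0.22 (SE 0.14, DESeq2 adjusted p = 0.275). At an unadjusted p under 0.05 there were 9 of the 15 receptors, beside 6112 of all 18196 tested genes.

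Assembly and associated proteins had 6 of 15 tested genes called lower and 4 called higher, and the 4 became 1 when fold changes were set to library totals and 3 with the length and GC trend removed. Sparc, a collagen-binding matricellular protein, had the highest mean of that list and fell from an implied level of 80100 to 26795, a log2 fold change of -1.58 (SE 0.17, DESeq2 adjusted p = 1.17e-19). Smoc1, a related calcium-binding protein, rose from 5961 to 8378, with a log2 fold change of 0.49 (SE 0.17, DESeq2 adjusted p = 0.0231). The others called higher were Hmcn2 (1.16), Ntn1 (0.53) and Fbln1 (0.46), and those lower included Pxdn (-0.86), the peroxidase that cross-links type IV collagen, and Loxl2 (-1.05), a lysyl oxidase. These were named after their values were seen. Tinag, with a mean of 7.99, was under the minimum of 10.

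In the collagenous and elastic layers of Bruch's membrane, 8 of 12 tested genes were called lower and 1 higher, with a median log2 fold change of -0.79. Timp3, the metalloproteinase inhibitor mutated in Sorsby fundus dystrophy, had the highest mean, 60954, and a log2 fold change of 0.07 (SE 0.16, DESeq2 adjusted p = 0.790). Col1a2, a type I collagen chain, fell from 55887 to 18555, a log2 fold change of -1.59 (SE 0.20, DESeq2 adjusted p = 1.15e-13). Col5a2 and Col5a1, type V collagen chains with no p-value, had log2 fold changes of -1.70 (SE 0.14) and -1.17 (SE 0.16). Fn1, encoding fibronectin, was the gene called higher, with a log2 fold change of 0.59, and was named after its value was seen. The summed implied level of the 14 genes was 240883 in young and 133924 in aged RPE/choroid. Fibroblast markers had 4 of 8 called lower and 1 higher, with a median of -0.35. Their summed implied level was 104030 in young and 142559 in aged RPE/choroid. Dcn, the fibroblast marker with the highest mean (84651), was the 1 called higher, with a log2 fold change of 0.68. Corneal stroma markers had 3 of 4 called lower and 4 of 4 below 0, with a median of -1.01. Their summed implied level was 24246 in young and 11772 in aged RPE/choroid. Of these sums, Aldh3a1, the gene not called, held 13094 and 6536.5, and its SE of 0.43 was the widest of that list. The part of either cell type in these values was not tested.

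**Figure D4:**
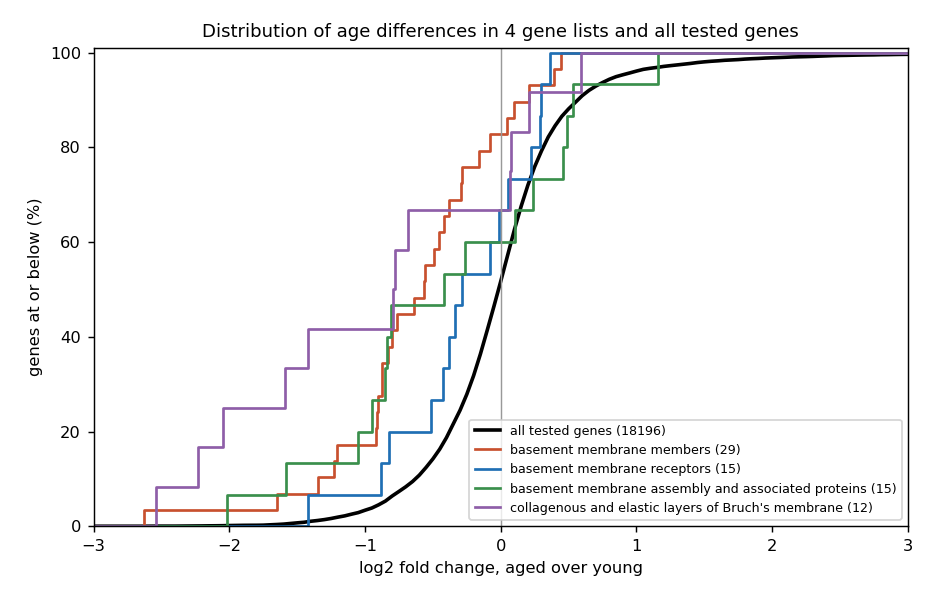
Percent of genes at or below each log2 fold change, aged over young, for the 29 tested members, the 3 related lists and all 18196 tested genes. The curve of the members runs to the left of that of all genes, with medians of -0.57 and -0.02, and the collagenous and elastic layers reach farthest left beside Frem2 of the members.

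Levels of the members spanned a wide range within the tissue, and their order depends on the transcript length chosen. Per kilobase of the longest transcript, over both ages, Col8a2 and Col8a1 were followed by Lamb2 (2047 normalized counts), Col18a1 (1363), Col4a5 (1159), Col4a1 (1146), Tinagl1 (1111) and Ntn4 (996). At the other end stood Frem2 (29.7), Col7a1 (20.3), Lamb3 (18.7) and Lama1 (10.1). The median over members was 299 per kilobase, beside 222 over tested genes. Whether neighbours in that order differ could not be examined, since the table holds no spread between mice for a level. Among the 8 most abundant members per kilobase of the longest transcript, Col8a1 and Col4a1 were called lower, Ntn4 was called higher, Col4a5 had no p-value and Col8a2, Lamb2, Col18a1 and Tinagl1 were not called.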

How the data were processed

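Poly(A) RNA of RPE/choroid was sequenced from 3 young and 3 aged mice. Per the study and the labels, ribosomal RNA was also removed and a stranded kit was used. Per the study's methods and labels, the authors trimmed and filtered the read pairs, mapped them with STAR to GRCm38, quantified transcripts, scaled them by total counts and compared the ages with DESeq2. Implied levels summed over all genes were higher in aged tissue, by 0.13 on the log2 scale. Whether DESeq2 was run on the scaled values is not clear from the sources used here, and that difference does not settle it. Versions of STAR and DESeq2 are not given in the sources used here.

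The deposited table is the authors' comparison and the source of every value. Its mean is a signal in normalized counts, averaged by the authors over both ages. The fold change and its standard error were deposited as log2 values for young against aged tissue, which were multiplied by -1 here. The Wald statistic is a score deposited as the fold change over its standard error. Each p-value and adjusted p-value deposited by the authors is 2-sided. A test per library was not possible, so the adjustment was recomputed with Benjamini-Hochberg over 18196 genes that had a p-value and a mean of 10 or more. The depth of single libraries is unknown, and replicates are separate mice per the labels.

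Intervals are normal intervals at 95% from the standard errors. The implied level assumes equal groups and a ratio equal to the fold change. Lengths came from the longest GENCODE transcript on GRCm38, matched for 97.2% of tested genes, and promoters from RefSeq GRCm38.p6. Python 3.11.15, numpy 2.4.6, pandas 2.3.3, scipy 1.17.1, statsmodels 0.14.6 and matplotlib 3.10.9 were used, and the steps were tested on simulated data.

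All members were named. In other lists the 2 genes with the highest mean and genes with no p-value were named, except where marked. The members and lists were chosen with earlier results of these data known. 1 marker of the rod list is not reported here. Lens markers and the gene pairs were chosen after values were seen. Alternatives were other filters, the deposited adjusted p-values, stricter thresholds, correction for length and GC content, a shift to library totals, Wald p-values for genes without one and median transcript lengths.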

Additional observations from a re-analysis of the deposited data

How the results depend on the processing

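No paired analysis was possible because values of single mice are not in the table used, so no replicate block was fitted and no replicate was left out. The 17 members lower with age were 15 with no filter on the mean, 16 with a mean of at least 100, 13 at an adjusted p under 0.01, 19 after a shift to library totals and 20 with Wald p-values for the 3 genes without one. A minimum of 1 on the absolute log2 fold change left 5 lower and 0 higher. The 1 member higher with age, Ntn4, became 0 at an adjusted p under 0.01 and 0 after the shift. That shift of 0.13 moved the median of all genes from -0.02 to -0.15 and the share higher among calls from 55.5% to 33.1%, against 62.7% with the length and GC trend removed. It added Lama2 (adjusted p = 0.00811) and Col17a1 (0.0430). Wald p-values gave adjusted p of 0.000119 for Col4a5, 0.0299 for Lamc3 and 0.00262 for Col7a1. They were computed here from the deposited Wald statistic of genes whose p-value was left out. The reason for leaving it out is not given in the sources used here. Whether a single library drives any of these 3 genes could not be examined, so they are not counted as called. Estimates that turned sign were Hspg2 (-0.0324 with the shift, -0.0366 with the trend removed) and Tinagl1 (-0.0862 and -0.0329), neither called. The median level per kilobase was 388 with median transcript lengths, against 299. Of the related lists, receptors called higher went from 0 to 1 with the trend removed and assembly proteins called higher from 4 to 1 with the shift. The causes were not tested. Precision rests on 3 mice per age and on standard errors that the table gives.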

Other observations

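Lens markers, a list chosen after values were seen, had 1 of 4 tested genes called lower, and their log2 fold changes ran from -1.11 to 0.22. Cryaa, a lens crystallin, had a mean normalized count of 8327 and Crygs had 2084, and neither has a p-value. Skeletal muscle markers had 1 of 8 genes called in each direction, and Myh4, a fast muscle myosin, had a mean of 48944. Among corneal stroma markers, Aldh3a1, a corneal crystallin, had a mean of 9815. Schwann cell markers had 0 of 7 tested genes called in the DESeq2 Wald test. Of these 7, 1 had an unadjusted p under 0.05, beside 6112 of all 18196 tested genes. Pericyte and smooth muscle markers had 3 of 8 tested genes called lower, with 4 of 9 below 0 and a median log2 fold change of 0.16 over the 9. Macrophage markers had a median log2 fold change of 1.42 over 8 genes, with C1qa, a complement component, at 1.93 (SE 0.15). The part of these cells in the members' values was not tested.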
